A study of Mus musculus with 16 samples.

Results

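Integrins outside the platelet receptor were followed through RNA sequencing of mouse bone marrow. The set was fixed as 10 genes by name (Itga4, Itga5, Itga6, Itgav, Itgal, Itgam, Itgb1, Itgb2, Itgb5 and Itgb7), and all 10 were found among the 29806 gene rows. The libraries came from 2 sorted cell types: HSC, haematopoietic stem cells, and MPP3 Fcgr(-), multipotent progenitors with a myeloid bias, labelled as negative for Fcgr, the Fc gamma receptors (MPP3 below). Each was taken from WT mice, titled as the control of Jak2 (control below), and from mice of genotype Jak2V617F (mutant below), which carry a change that keeps the kinase JAK2 active. There were 4 groups of 4 libraries, and the labels give each replicate number as a batch. Libraries were made from 7000 to 10000 cells. The sources used here give no age or sex, do not say how the Jak2V617F allele was carried, and do not say that replicates were separate animals, so a p-value here rests on the spread of these libraries, which may be technical.

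Integrins are adhesion receptors made of 1 alpha and 1 beta chain, and a chain reaches the cell surface only with a partner. In blood-forming cells the beta1 chain pairs with alpha4, alpha5 and alpha6 to bind fibronectin, VCAM1 and laminin in the marrow, and the beta2 chain pairs with alphaL, alphaM or alphaX to form the leukocyte integrins that bind ICAMs and complement. The alpha4 chain can also pair with beta7, which binds MAdCAM1 in the gut, and alphav pairs with several beta chains, beta5 among them. A signal inside the cell, through RAP1, talin and kindlin-3, switches the pair to its binding form.

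The libraries held 33.4 to 41.5 estimated counts in units of 1e6 each, with 14439 to 16522 genes detected. Levels are CPM, estimated counts per 1e6 with TMM-scaled library sizes, and are compared between libraries; levels of different genes are compared only in TPM, which divides by length. Adjusted p is from the quasi-likelihood test of edgeR with Benjamini-Hochberg adjustment over 14179 genes, a change is called under 0.05, and log2 fold changes stand ± SE. The 8 HSC marker genes summed to between 674 and 832 CPM in control HSC, 429 and 495 in mutant HSC, 276 and 366 in control MPP3 and 219.7 and 297 in mutant MPP3. Sums of the 7 myeloid progenitor markers reached no more than 412 CPM in any HSC library and were at least 2565 CPM in every MPP3 library. The sums of 11 neutrophil markers ran from 24.3 to 73.8 CPM in control HSC, 4.34 to 51.4 in mutant HSC, 11 to 301 in control MPP3 and 7.84 to 217 in mutant MPP3, and control MPP3 replicate 2 and mutant MPP3 replicate 3 held the highest sums of their groups. The 4 Fcgr genes summed to 2.63 to 8.33 CPM over the HSC libraries and 14.4 to 42.7 CPM over the MPP3 ones, higher in every library labelled Fcgr(-), and Fcgr2b and Fcgr3 rose in both genotypes by edgeR. The Fcgr3 call in mutant mice (edgeR adjusted p = 0.0462) was lost in 13 of 16 fits that left out 1 library (up to 0.123). That of Fcgr2b in control mice was lost in 1 of 16. In bulk RNA, more cells of a type and more RNA per cell cannot be told apart.

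Per length, the beta1 chain Itgb1 and the alpha6 chain Itga6 stood among the 3 most abundant members in every group. In control HSC the order was Itga6 (51.1 ± 11.4 TPM, SD, n = 4), Itgb1 (45.8 ± 1.98 TPM), Itgb2 (40.1 ± 6.2 TPM) and Itga5 (35.7 ± 5.66 TPM), and each neighbouring pair in that order lay within its SDs. Itgav (18.6 ± 2.73 TPM), Itgb7 (17.5 ± 5.02 TPM) and Itga4 (15.5 ± 1.44 TPM) followed, also within their SDs of each other. Itgal (2.88 ± 0.980 TPM), Itgam (2.31 ± 2.24 TPM) and Itgb5 (0.528 ± 0.605 TPM) were lowest. In mutant HSC Itgb2 led with 54.4 ± 7.83 TPM, and Itgal (4.02 ± 0.859 TPM), Itgam (1.38 ± 0.447 TPM) and Itgb5 (0.164 ± 0.274 TPM) again came last. Itgal was eighth of 10 in both HSC groups and stood in the middle of the order in MPP3, at 25.4 ± 5.72 TPM in control MPP3 and 25.9 ± 2.83 TPM in mutant MPP3. In control MPP3 the members from Itga6 (31.4 ± 5.60 TPM) through Itgb7, Itgb2, Itga4 and Itgal to Itga5 (23.9 ± 1.40 TPM) formed a run in which no neighbours parted beyond their SDs. The TPM of Itgav rests on effective lengths of 515 to 896 bases and that of Itga6 on 2111 to 2610 bases. Those of Itga4, Itga5, Itgal and Itgam were 3904 to 7462 bases. The places of Itgav and Itga6 in the order therefore depend on the transcripts the quantification chose.

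**Figure D1:**
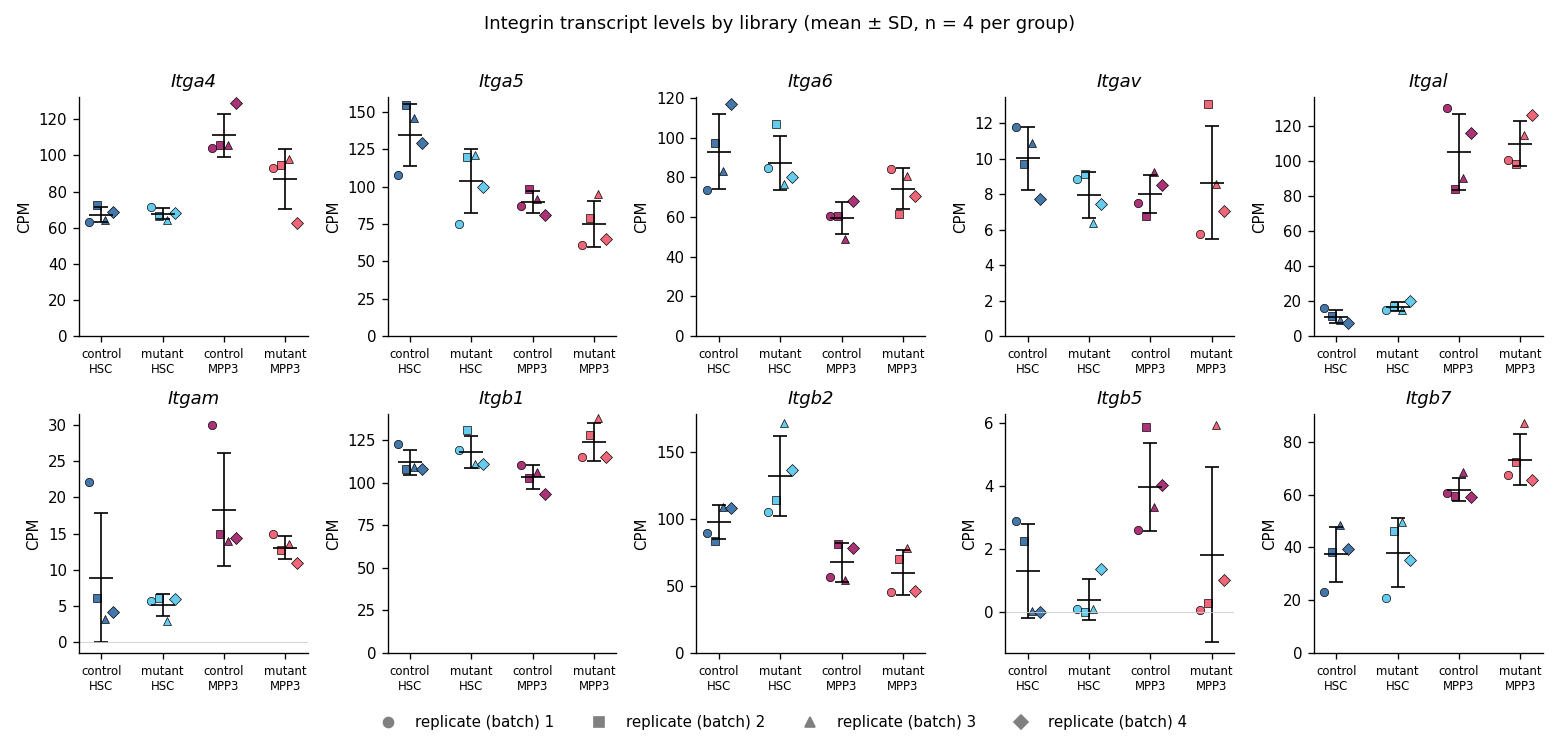
CPM of each of the 10 integrin genes in every library (points, shaped by replicate number, which is also the batch), with the mean and SD of each group of 4 as bars. Itgal parts the cell types without overlap in both genotypes, with 7.44 to 20.0 CPM in HSC and 84.2 to 130.3 CPM in MPP3.

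The comparison of MPP3 with HSC asks how the adhesion receptors differ between stem cells and the myeloid-biased progenitors. In control mice 3 of the 10 integrins rose (Itgal, Itga4 and Itgb7) and 2 fell (Itga5 and Itga6). Of all 14179 genes, 13.6% were called in that comparison, 6.67% higher and 6.91% lower. In mutant mice 2 rose (Itgal and Itgb7) and 1 fell (Itgb2), where 8.36% of all genes were called, 3.69% higher and 4.68% lower. The median log2 fold change of the 10 members was 0.30 in control and 0.24 in mutant mice, beside -0.01 and 0.00 over all genes tested. The numbers of integrins called were 6 and 5 in a fit with the batch as a block, where 2241 and 1360 of 14179 genes were called. That fit also called Itgam in both genotypes and Itga5 in mutant mice. In control mice 3 integrins were called without control HSC replicate 2 or without control MPP3 replicate 4, beside 1396 of 14460 and 1587 of 14487 genes.

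Itgal encodes the alphaL chain (CD11a) of LFA-1, the ICAM receptor of leukocytes, and lies on chromosome 7 from 127296260 to 127335138 (GRCm38, plus strand). Its level was 15.9, 11.2, 9.19 and 7.44 CPM in control HSC replicates 1 to 4, and 130.3, 84.2, 90.4 and 116 CPM in control MPP3. Mutant HSC held 14.8, 17.3, 14.7 and 20.0 CPM, and mutant MPP3 100.4, 98.2, 115 and 126 CPM. Every MPP3 library was higher than every HSC library, and the lowest MPP3 value was more than 4 times the highest of HSC. The difference was 9.64-fold in control mice (log2 3.27 ± 0.22, edgeR adjusted p = 2.96e-08) and 6.58-fold in mutant mice (2.72 ± 0.21, edgeR adjusted p = 2.76e-07). T and NK cells also carry LFA-1, and the 9 markers of these cells summed to 13.1 to 24.4 CPM in control HSC, 3.14 to 13 in mutant HSC, 6.91 to 23.3 in control MPP3 and 3.84 to 5.08 in mutant MPP3, and the smallest edgeR adjusted p among the 6 tested was 0.0799 in control mice (Ncr1, higher in MPP3) and 0.169 in mutant mice (Cd4, lower). The 8 B cell markers, of cells that carry LFA-1 too, summed to 72.5 to 94.3 CPM in control HSC, 53.4 to 66.9 in mutant HSC, 121 to 239 in control MPP3 and 72.0 to 126 in mutant MPP3, and 5 of 7 tested rose in each genotype. Mast cell and basophil markers, 6 genes, summed to 4.74 to 11 CPM over the HSC libraries of both genotypes and 72.6 to 146 CPM over those of MPP3. The part of these cells in the Itgal level was not tested.

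Itgam, the alphaM chain (CD11b) of the complement receptor on neutrophils and macrophages, lies 727.5 kb downstream of Itgal on the same strand of chromosome 7 (128062640 to 128118491). It stood at 22.2, 6.06, 3.28 and 4.22 CPM in control HSC and 30.0, 14.9, 14 and 14.4 CPM in control MPP3. In mutant mice HSC held 5.76, 6.09, 2.96 and 5.96 CPM and MPP3 14.9, 12.8, 13.6 and 11 CPM. The control groups overlapped through replicate 1 of HSC alone, the mutant groups did not overlap, and MPP3 was higher within all 4 batches of both genotypes. The log2 fold change was 1.04 ± 0.48 in control mice (edgeR adjusted p = 0.173) and 1.33 ± 0.48 in mutant mice (edgeR adjusted p = 0.109), and neither was called. With the batch as a block both were called, at 1.27 (edgeR adjusted p = 0.0332) and 1.37 (edgeR adjusted p = 0.0330). Without control HSC replicate 1 the control difference was 2.01 (edgeR adjusted p = 0.00121), and the mutant one, which shares the estimate of spread, was also called (edgeR adjusted p = 0.0131). The neutrophil marker sum was 41.6 CPM in control HSC replicate 1 and 73.8 CPM in replicate 2. The 9 macrophage and dendritic markers were highest in replicate 1 of both control groups, 32.6 CPM in HSC and 62.3 CPM in MPP3, against 19.3 to 27.4 and 45.9 to 51.8 CPM in the other replicates. The part of neutrophils, macrophages and dendritic cells in the Itgam level was not tested. Itgam shares 3450 exon bases with Gm49368 on the same strand, a gene with a mean of 2.59 counts per library, and no source states how reads were divided between them.

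Itgb2 encodes beta2 (CD18), the partner that alphaL and alphaM share, on chromosome 10 (77530252 to 77565708). In mutant mice it stood at 105, 114, 172 and 137 CPM in HSC and 45.3, 70.6, 78.3 and 46.1 CPM in MPP3, without overlap. The fall was 2.20-fold (log2 -1.14 ± 0.20, edgeR adjusted p = 0.00141). Control HSC held 89.8, 83.8, 109 and 108 CPM and control MPP3 56.5, 81.4, 54.3 and 78.4 CPM. The control groups did not overlap either, MPP3 being lower in 4 of 4 batches, but the log2 fold change of -0.53 ± 0.20 was not called (edgeR adjusted p = 0.0948). The difference between the genotypes in this fall was not called (log2 -0.61 ± 0.28, edgeR adjusted p = 0.711). The beta2 chain therefore moved in the opposite direction to Itgal in mutant mice.

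Set side by side per length, the alpha chains of the beta2 family (Itgal, Itgam, Itgax and Itgad summed) came to 0.141 ± 0.102 of Itgb2 in control HSC and 0.103 ± 0.0311 in mutant HSC (SD, n = 4). The ratio was 1.12 ± 0.366 in control MPP3 and 1.34 ± 0.430 in mutant MPP3. Over the libraries it ran from 0.0561 to 0.285 in HSC and from 0.744 to 1.82 in MPP3, so the cell types did not overlap. Itgal made up 81.8% ± 3.60 of the summed alpha TPM in control MPP3 and 84.7% ± 4.08 in mutant MPP3, against 60.7% ± 13.8 and 74.7% ± 4.13 in control and mutant HSC. Itgax, the alphaX chain (CD11c) of dendritic cells and some myeloid cells, had no count in any of the 8 HSC libraries and 26 to 170 counts in the 8 MPP3 libraries. Against a floor of 3 counts per library its mean of 2.78 CPM in control MPP3 was at least 35.1-fold higher than in control HSC (edgeR adjusted p = 0.000288). Its mean of 3.12 CPM in mutant MPP3 was at least 40.4-fold higher than in mutant HSC (edgeR adjusted p = 0.000324).

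**Figure D2:**
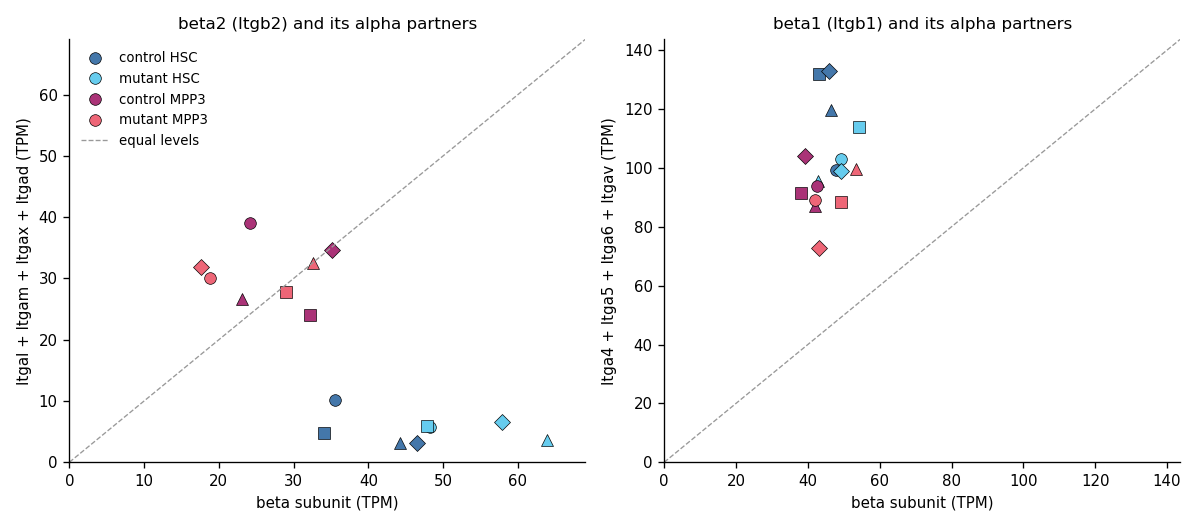
TPM of the beta chain (horizontal) against the summed TPM of its alpha partners (vertical) in each library for beta2 on the left and beta1 on the right, coloured by group and shaped by replicate, with the line of equal levels dashed. For beta2 the HSC libraries lie far under the line, at ratios of 0.0561 to 0.285, and the MPP3 libraries around it; for beta1 all 16 libraries lie above the line.

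Itga4 and Itgb7 encode the 2 chains of the gut-homing receptor alpha4beta7, and alpha4 with beta1 makes VLA-4, which holds stem and progenitor cells to VCAM1 in the marrow. Both rose from HSC to MPP3 in control mice, while Itga5, the alpha5 chain of the fibronectin receptor, fell. Their promoter windows are shown because these 3 genes moved in that comparison. Each line gives 300 bases from 250 before the gene's start to 50 from it on, read 5′ to 3′ on the gene's own strand (RefSeq, GRCm38.p6): chr2:79255176-79255475 for Itga4 (plus strand), chr15:102231886-102232185 for Itgb7 (minus strand) and chr15:103366742-103367041 for Itga5 (minus strand). Capitals mark matches on either strand to the motif letters searched.
Itga4: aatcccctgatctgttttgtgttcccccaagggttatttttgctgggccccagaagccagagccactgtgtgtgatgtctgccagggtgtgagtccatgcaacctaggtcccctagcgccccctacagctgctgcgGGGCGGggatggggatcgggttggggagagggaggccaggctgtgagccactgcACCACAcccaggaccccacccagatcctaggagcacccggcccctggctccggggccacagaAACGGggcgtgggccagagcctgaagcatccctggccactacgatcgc
Itgb7: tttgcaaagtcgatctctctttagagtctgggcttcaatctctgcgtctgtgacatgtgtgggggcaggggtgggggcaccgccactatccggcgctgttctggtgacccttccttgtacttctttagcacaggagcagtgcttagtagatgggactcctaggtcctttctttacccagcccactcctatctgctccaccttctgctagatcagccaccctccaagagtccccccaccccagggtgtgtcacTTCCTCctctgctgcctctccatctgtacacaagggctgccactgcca
Itga5: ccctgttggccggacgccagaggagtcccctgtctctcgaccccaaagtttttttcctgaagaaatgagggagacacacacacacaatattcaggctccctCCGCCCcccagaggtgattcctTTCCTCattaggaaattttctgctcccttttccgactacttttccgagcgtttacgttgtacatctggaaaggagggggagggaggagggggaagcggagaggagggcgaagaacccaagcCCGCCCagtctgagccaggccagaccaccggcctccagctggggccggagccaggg
Short motifs of 6 kinds were searched on both strands, with no overlap between matches: GAGGAA, the core that ETS factors such as PU.1 bind, TGTGGT of RUNX factors, AACGG of MYB, AGATAA of GATA factors, the GC box GGGCGG and the TATA box TATAAA. The Itga4 window held 1 match each to the RUNX, MYB and GC box letters. The window of Itgb7 held 1 match to GAGGAA, so it shared no motif with that of Itga4, and the Itga5 window held 1 match to GAGGAA and 2 to GGGCGG. Of 32851 promoter windows of the same length, 28.3% held GAGGAA, 16.8% TGTGGT, 17.4% AACGG, 11.2% AGATAA, 35.7% GGGCGG and 13.6% TATAAA. Of the 7 members with a window, Itgam held the most GAGGAA matches, with 3. Itga6, Itgal and Itgb2 were not matched in the table.

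Itga4 (chromosome 2, 79255426 to 79333123, plus strand) stood at 63.0, 72.5, 64.5 and 68.7 CPM in control HSC and 104, 106, 106 and 129 CPM in control MPP3. All control MPP3 libraries were higher, by 1.66-fold (log2 0.73 ± 0.13, edgeR adjusted p = 0.000793). Mutant HSC held 71.5, 66.4, 64.5 and 68.2 CPM and mutant MPP3 92.9, 94.5, 97.8 and 62.6 CPM. Replicate 4 of mutant MPP3 lay under all the mutant HSC libraries and the others above them. The difference in mutant mice was 0.36 ± 0.13 on the log2 scale and was not called (edgeR adjusted p = 0.0918), and without that replicate it was 0.48 and called (edgeR adjusted p = 0.00668). A test of the difference between genotypes gave -0.37 ± 0.18 (edgeR adjusted p = 0.725). Itga4 shares 1124 exon bases with Cerkl on the opposite strand, whose mean was 384.49 counts per library against at least 2271 for Itga4. The sources used here do not say whether the counting used strand, and without it reads from the shared bases cannot be told apart.

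Itgb7 (chromosome 15, 102215995 to 102231944, minus strand) stood at 23.3, 38.3, 48.5 and 39.3 CPM in control HSC and 60.8, 59.4, 68.5 and 59.0 CPM in control MPP3. Mutant HSC held 21.0, 46.3, 49.7 and 35.1 CPM, and mutant MPP3 67.6, 72.4, 87.2 and 65.7 CPM. Neither pair of groups overlapped, and replicate 1 was the lowest of both HSC groups. The rise was 1.66-fold in control mice (log2 0.73 ± 0.23, edgeR adjusted p = 0.0445) and 1.93-fold in mutant mice (0.95 ± 0.23, edgeR adjusted p = 0.0148). The control call was lost without any 1 of 8 libraries: control HSC replicate 1, 2 or 4, mutant HSC replicate 4, or control MPP3 replicate 1, 2, 3 or 4 (edgeR adjusted p between 0.0550 and 0.113, log2 fold change between 0.56 and 0.88 over all libraries left out). In mutant mice it was lost when HSC replicates 1 and 4 were left out together (0.61, edgeR adjusted p = 0.141) and when control MPP3 replicate 2 and mutant MPP3 replicate 3, the libraries highest in neutrophil markers, were left out (edgeR adjusted p = 0.0582). The mast cell and basophil marker sums and the B cell marker sums, given beside Itgal, were also higher in MPP3 than in HSC. The part of these cells in the Itga4 and Itgb7 levels was not tested.

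Among the alpha chains that pair with beta1, Itga5 lies 1112 kb from Itgb7 on chromosome 15 (103344286 to 103366763, minus strand). It stood at 108, 155, 146 and 129 CPM in control HSC and 87.3, 98.5, 91.7 and 80.7 CPM in control MPP3, without overlap. The fall was 1.51-fold (log2 -0.59 ± 0.16, edgeR adjusted p = 0.0242), and the call was lost without control HSC replicate 2 or 3 or control MPP3 replicate 4 (edgeR adjusted p = 0.0763, 0.0649 and 0.0670). Mutant HSC held 75.1, 119.6, 121 and 99.5 CPM and mutant MPP3 61.1, 79.2, 95.4 and 64.8 CPM. These groups overlapped, MPP3 was lower within all 4 batches, and the log2 fold change of -0.46 ± 0.16 was not called (edgeR adjusted p = 0.0998). It was called with the batch as a block (-0.46, edgeR adjusted p = 0.0113), by DESeq2 (adjusted p = 0.0469) and without mutant HSC replicate 1 or mutant MPP3 replicate 3 (edgeR adjusted p = 0.0285 and 0.0267).

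Itga6 (chromosome 2, 71745616 to 71858416), the alpha6 chain of laminin receptors, pairs with beta1 or beta4. Its level was 73.6, 97.5, 83.1 and 117 CPM in control HSC and 60.3, 60.7, 48.7 and 68.1 CPM in control MPP3. All MPP3 libraries were lower there, by 1.56-fold (log2 -0.64 ± 0.16, edgeR adjusted p = 0.0109), and this call held without each library in turn (edgeR adjusted p at most 0.0434). In mutant mice HSC held 84.9, 107, 76.7 and 80.0 CPM and MPP3 84.4, 61.3, 80.4 and 70.7 CPM. The mutant groups overlapped, with a log2 fold change of -0.23 ± 0.16 (95% interval -0.56 to 0.10, edgeR adjusted p = 0.462). The genotypes did not differ in this by a call (0.41 ± 0.22, edgeR adjusted p = 0.794).

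Itgb1 (chromosome 8, 128685654 to 128733200), the beta1 chain itself, varied least of the members. It stood at 123, 108, 109 and 108 CPM in control HSC and 110.3, 103, 106 and 93.4 CPM in control MPP3, which overlapped. The log2 fold change from HSC to MPP3 had a 95% interval of -0.31 to 0.07 in control mice and -0.12 to 0.27 in mutant mice. The 4 alpha chains among the members that can pair with it, Itga4, Itga5, Itga6 and Itgav, summed to 2.65 ± 0.433 times its TPM in control HSC, 2.11 ± 0.0875 in mutant HSC, 2.33 ± 0.246 in control MPP3 and 1.87 ± 0.186 in mutant MPP3. Within that sum Itga4 made up 12.9% ± 1.43 in control HSC and 27.3% ± 4.27 in control MPP3, and no library of one group reached the range of the other. Itga6 made up the largest share of the 4 in each group, from 33.2% ± 3.67 in control MPP3 to 44.9% ± 2.86 in mutant HSC. The sums and shares depend on the effective lengths, which were 2111 to 2610 bases for Itga6 and 4501 to 4747 bases for Itga5. Those of Itgav were 515 to 896 bases. For Itga4 they varied between libraries from 3904 to 7462 bases.

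Itgav (chromosome 2, 83724397 to 83806916), the alphav chain of vitronectin receptors and of TGF-beta activation, was close between groups. It ran from 7.72 to 11.8 CPM in control HSC (median 10.3), 6.37 to 9.15 in mutant HSC (8.16), 6.79 to 9.23 in control MPP3 (8.02) and 5.78 to 13.1 in mutant MPP3 (7.83). All groups overlapped, and the log2 fold change from HSC to MPP3 had a 95% interval of -0.86 to 0.22 in control and -0.42 to 0.66 in mutant mice. Its partner Itgb5 (chromosome 16, 33829665 to 33949338) was near the floor in many libraries. Control HSC held 2.88, 2.26, 0.0520 and 0 CPM of Itgb5 and control MPP3 2.60, 5.88, 3.34 and 4.04 CPM. Mutant HSC held 0.0948, 0, 0.107 and 1.36 CPM and mutant MPP3 0.0575, 0.279, 5.93 and 1.02 CPM. The groups overlapped in both genotypes, and in mutant MPP3 replicate 3 stood far above the other libraries. Its log2 fold change from HSC to MPP3 was 1.61 ± 1.47 in control (edgeR adjusted p = 0.557) and 2.21 ± 1.52 in mutant mice (edgeR adjusted p = 0.478), with 95% intervals of -1.5 to 4.72 and -1.0 to 5.41. A count of 0 at this depth allows up to 3 counts, and that limit covers counting error only.

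**Figure D3:**
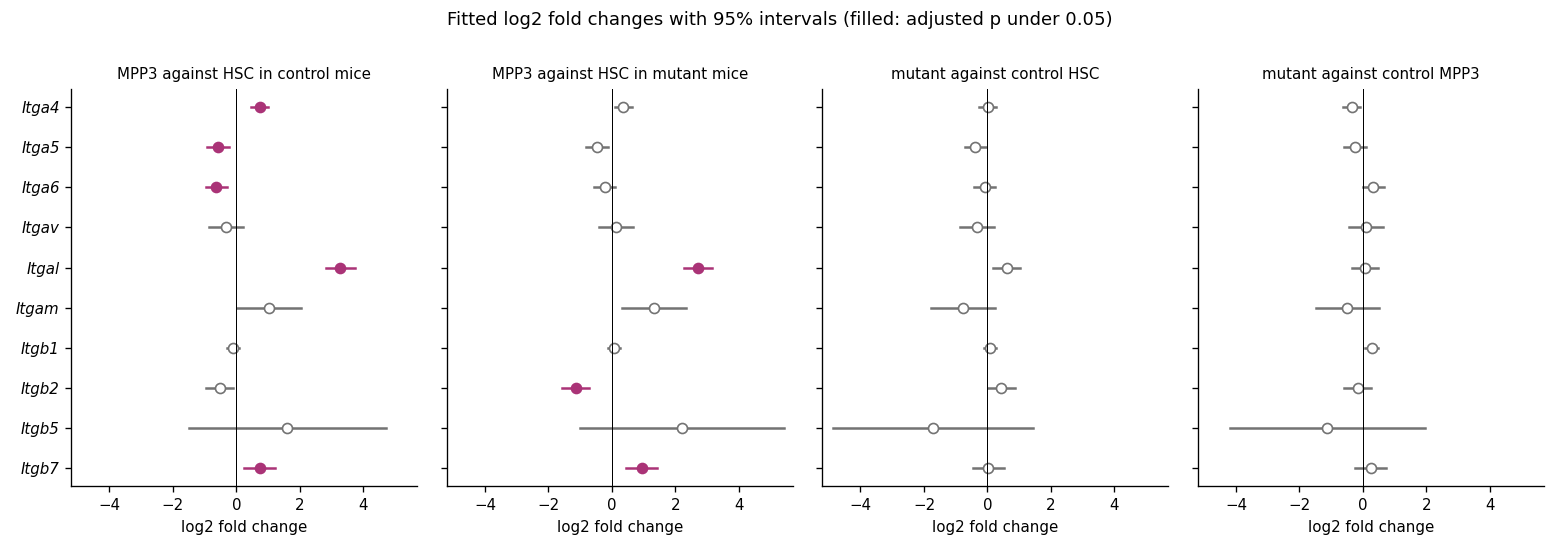
Fitted log2 fold change of each integrin (points) with its 95% interval (lines) in 4 comparisons, filled where the edgeR adjusted p was under 0.05. The cell type comparisons hold the filled points, 5 in control and 3 in mutant mice, whereas both comparisons of mutant with control hold none; Itgb5 has the widest intervals.

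The comparison of mutant with control asks what Jak2V617F changes within each cell type. None of the 10 integrins was called in HSC or in MPP3 with edgeR, nor in the difference of the mutant effect between them, where 7.30% (4.56% higher, 2.74% lower), 0.0635% and 0.0423% of all genes were called. At an unadjusted p under 0.05 there were 3 members in HSC (Itgal, Itga5 and Itgb2), 2 in MPP3 (Itga4 and Itgb1) and 1 in the difference (Itgb2), where 21.7%, 13.8% and 6.93% of all genes passed. DESeq2 called 1 in HSC and 0 in the other 2 tests, where it called 1668, 386 and 78 of 14146 genes. Without control HSC replicate 1 edgeR called 1 in HSC, beside 986 of 14453 genes. In each test limma-voom called 0, beside 1271, 6 and 5 of 14179 genes. The members' median log2 fold change was -0.04 in HSC and -0.05 in MPP3, beside -0.06 and -0.02 over all genes.

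Itgal was higher in mutant than in control HSC in 3 of 4 batches, at a mean of 16.7 ± 2.49 against 10.9 ± 3.64 CPM (SD, n = 4). The groups overlapped through control replicate 1, and the log2 fold change of 0.61 ± 0.20 had an edgeR adjusted p of 0.0768. DESeq2 called it (0.62, adjusted p = 0.0279), as did edgeR without control HSC replicate 1 (0.88, adjusted p = 0.0106). Itgb2, its partner, was higher in the mutant in 4 of 4 HSC batches, with 132 ± 29.6 against 97.5 ± 12.7 CPM. Its groups overlapped, and the log2 fold change of 0.44 ± 0.20 was not called (edgeR adjusted p = 0.215). Itga5 was lower in mutant HSC in 4 of 4 batches, at 104 ± 21.4 against 135 ± 20.8 CPM. The groups overlapped (log2 -0.38 ± 0.16, edgeR adjusted p = 0.185), and with the batch as a block the fall was called (-0.39, edgeR adjusted p = 0.0307). Itgam reversed its direction in HSC without 1 library: -0.78 ± 0.48 with all libraries (edgeR adjusted p = 0.373) and 0.24 without control HSC replicate 1. For Itga4 and Itgb7 in HSC the 95% intervals were -0.25 to 0.27 and -0.46 to 0.51 around log2 fold changes of 0.01 and 0.03.

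In MPP3, Itga4 and Itgb1 were the members whose mutant and control libraries did not overlap. Neither was called, and the share of all genes whose libraries part in this way was not computed. Itga4 was lower in the mutant in 4 of 4 batches, at 86.9 ± 16.3 against 111 ± 11.9 CPM (log2 -0.36 ± 0.12, edgeR adjusted p = 0.210). Itgb1 was higher in 4 of 4 batches, with 115, 128, 138 and 115 CPM in the mutant libraries against 93.4 to 110.3 CPM in the control ones (log2 0.27 ± 0.09, edgeR adjusted p = 0.199). Itga6 was also higher in 4 of 4 batches and its groups overlapped (0.32 ± 0.16, edgeR adjusted p = 0.382). Itgal stood at 109.9 ± 13 in mutant and 105 ± 21.7 CPM in control MPP3, with a 95% interval of -0.35 to 0.48 around a log2 fold change of 0.06. The mutant effect on Itgal differed between MPP3 and HSC by -0.55 ± 0.28 (edgeR adjusted p = 0.764), so the 2 cell types were not shown to respond unequally.

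Of the 18 other integrin genes, 10 passed the filter on low counts. From HSC to MPP3, 3 of these 10 were called in control and 5 in mutant mice, where 13.6% and 8.36% of all genes were called. The platelet receptor chains Itga2b and Itgb3 fell from HSC to MPP3, from 427 ± 53.9 to 175 ± 32.7 CPM and from 51.0 ± 15.5 to 11.4 ± 1.87 CPM in control mice (log2 -1.29 ± 0.17 and -2.16 ± 0.23, edgeR adjusted p = 7.55e-05 and 7.03e-06). Itgax was the 1 other integrin that rose, in both genotypes. In mutant mice 4 fell: Itga2b, Itgb3, Itgb4 and Itga3. Itgb4, the beta4 partner of alpha6, stood at 7.94 ± 2.01 CPM in mutant HSC and 2.82 ± 1.21 CPM in mutant MPP3 (log2 -1.49 ± 0.40, edgeR adjusted p = 0.0241), and this call was lost without mutant HSC replicate 3 or 4 or mutant MPP3 replicate 1 (edgeR adjusted p up to 0.0698). Itga3, an alpha3 chain that also pairs with beta1, was lost without 4 libraries (mutant HSC replicate 3 or mutant MPP3 replicate 1, 3 or 4) and with the batch as a block (edgeR adjusted p = 0.0576), and had overlapping groups. Without mutant HSC replicate 3 or mutant MPP3 replicate 1, 3 of the 5 calls were left.

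Genes that switch integrins on inside the cell gave 1 rise and 3 falls among 22 tested in control mice, where 13.6% of all genes were called. Their median log2 fold change was -0.01. Rap1b, the small GTPase above talin, fell from 72.5 ± 7.81 to 41.4 ± 5.03 CPM (log2 -0.81 ± 0.14, edgeR adjusted p = 0.000798). Crk, an adaptor that recruits activators of RAP1, and Fermt3, which encodes kindlin-3, fell by 0.81 and 0.45 log2 units (edgeR adjusted p = 0.00184 and 0.0113). Flna, whose product filamin A competes with talin for integrin tails, rose by 0.38 log2 units (edgeR adjusted p = 0.0219), a call lost without control HSC replicate 1 or 3 or control MPP3 replicate 2 or 4. In mutant mice, where 8.36% of all genes were called, 1 rose and 4 fell, with a median of 0.07. Rap1b fell by 1.11 and Fermt3 by 0.80 log2 units (edgeR adjusted p = 4.79e-05 and 0.000143). Crk was not called in mutant mice, at 26.9 ± 5.98 CPM in HSC and 29.5 ± 1.06 CPM in MPP3. Tln1, the talin gene, was among the 4, at 608 ± 76.2 CPM in HSC and 473 ± 46.0 CPM in MPP3 (log2 -0.36 ± 0.11, edgeR adjusted p = 0.0451), a call lost in 7 of 16 fits that left out 1 library (edgeR adjusted p up to 0.129). Leaving out 1 library left 2 or 3 of these 5 calls without mutant HSC replicate 2 or 4 (3 each) or mutant MPP3 replicate 1 or 4 (2 each).

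Of the 31 genes tested from integrin signalling and the adhesion complex, 3 rose and 4 fell in control mice, and 4 rose and 4 fell in mutant mice. The medians were 0.04 in both, and 13.6% and 8.36% of all genes were called. Parvg, the parvin of blood cells in the ILK complex, rose from 228 ± 34.5 to 396 ± 41.5 CPM in control mice (log2 0.80 ± 0.12, edgeR adjusted p = 0.000286) and by 0.70 log2 units in mutant mice (edgeR adjusted p = 0.00120). Vcl, the actin linker vinculin, fell by 1.19 and 1.28 log2 units in control and mutant mice (edgeR adjusted p = 0.00482 and 0.00365). The kinases Ptk2b (PYK2) and Src fell in control mice, by 0.95 and 3.66 log2 units (edgeR adjusted p = 0.000304 and 0.00368). In mutant mice 4 or 5 of the 8 calls were left without mutant HSC replicate 1 or 2 (4 each), mutant HSC replicate 4 or mutant MPP3 replicate 2 (5 each). Among 16 tetraspanins and other integrin partners, 5 rose and 3 fell in control mice and 6 rose and 2 fell in mutant mice. The medians were 0.01 and 0.14, and the shares of all genes called were again 13.6% and 8.36%. Cd53, a tetraspanin of leukocytes, rose from 24.8 ± 9.67 to 221 ± 53.6 CPM (log2 3.16 ± 0.27, edgeR adjusted p = 6.32e-07), while Cd9, another tetraspanin, fell from 177 ± 13.3 to 83.1 ± 8.28 CPM (log2 -1.09 ± 0.10, edgeR adjusted p = 1.61e-06). Emb (embigin) and Cd37 rose by 1.44 and 1.09 log2 units in control mice (edgeR adjusted p = 2.80e-06 and 9.33e-05).

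Of 22 ligand genes tested, 5 were called in control mice, all lower, where 13.6% of all genes were called. In mutant mice 7 ligand genes were called, 1 higher and 6 lower, where 8.36% of all genes were called. The median log2 fold changes of the ligand genes were -0.76 and -0.50. In mutant mice 4 ligand genes were called without mutant MPP3 replicate 4. The 6 stroma and endothelium markers summed to 29.8 to 46.7 CPM in control HSC and 13.5 to 24.3 CPM in control MPP3, without overlap, and to 10.6 to 21.8 and 8.15 to 13 CPM in mutant HSC and MPP3, with overlap. Of the 5 markers tested, Kdr had the smallest edgeR adjusted p in both genotypes (0.0558 in control and 0.189 in mutant mice). Emcn made up most of these sums. Its mean was 30.3 (HSC) and 17.8 CPM (MPP3) for control mice, 12.2 and 9.16 CPM for mutant mice. Within HSC, Emcn was called lower in the mutant (edgeR adjusted p = 0.00956). Whether its RNA came from stroma or endothelium, and the part of such cells in the ligand levels, was not tested. The leading falls in control mice were in junctional adhesion molecules of the immunoglobulin family: F11r (JAM-A, an LFA-1 ligand) from 144 ± 11.7 to 55.9 ± 7.22 CPM, and Esam from 241 ± 8.30 to 99.5 ± 17.2 CPM (log2 -1.37 ± 0.15 and -1.28 ± 0.19, edgeR adjusted p = 9.78e-06 and 0.000213). Esam is counted among the ligand genes, though no integrin that it binds is given here. Jam2 (JAM-B, which binds alpha4beta1) and Jam3 (JAM-C, which binds the alphaM integrin) fell by 4.98 and 3.67 log2 units (edgeR adjusted p = 0.000145 and 0.00576). Icam4, another LFA-1 ligand, fell in mutant mice from 40.6 ± 7.56 to 16.4 ± 2.21 CPM (log2 -1.30 ± 0.20, edgeR adjusted p = 0.000324).

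**Figure D4:**
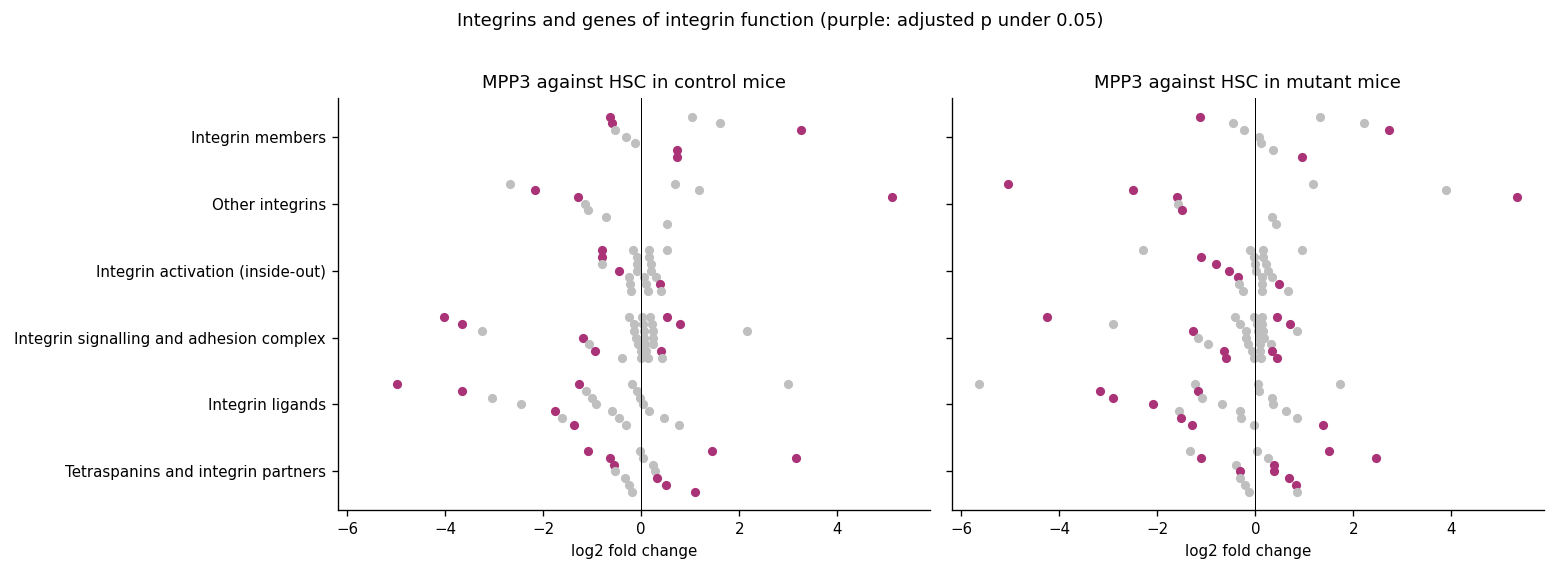
Log2 fold change from HSC to MPP3 of every tested gene (points) of the integrin set and of the lists of integrin function, in control mice on the left and mutant mice on the right; purple marks an edgeR adjusted p under 0.05, and a gene without counts in 1 group stands at its lower bound. Most genes of activation and signalling lie close to 0, and among the ligands 5 of 22 in control mice and 7 of 22 in mutant mice are purple. Of all genes tested, 13.6% and 8.36% were called.

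Within HSC, where 7.30% of all genes were called, edgeR called 1 of 10 other integrins, 1 of 22 activation genes, 2 of 31 signalling genes, 2 of 22 ligands and 5 of 16 partners in the mutant. Among the activation genes (2 called without control HSC replicate 1 or mutant MPP3 replicate 1 or 2, and 3 without mutant HSC replicate 3) Rap1b rose from 72.5 ± 7.81 to 105 ± 18.4 CPM (log2 0.54 ± 0.14, edgeR adjusted p = 0.0250), a call lost without control HSC replicate 2 or 3 or mutant HSC replicate 1 or 2. Lims1, the PINCH adaptor of the ILK complex, rose by 0.54 and Ptk2b fell by 0.83 log2 units (edgeR adjusted p = 0.0114 and 0.00293). Of 16 tetraspanins and partners 2 rose and 3 fell: Cd53 rose by 1.31 and Cd9 by 0.45 log2 units (edgeR adjusted p = 0.00514 and 0.0117), and Cd82 fell by 1.15 log2 units (edgeR adjusted p = 0.00460). The falls of Nrros, a partner of TGF-beta on myeloid cells, and Cd63, by 0.36 and 0.30 log2 units (edgeR adjusted p = 0.0198 and 0.0448), were lost in 5 and 15 of 16 fits that left out 1 library. Of the 5 calls 3 were left without control HSC replicate 1 or 3 or mutant HSC replicate 1 or 2. Icam4 rose by 0.78 and Icam1, the main LFA-1 ligand, fell by 0.52 log2 units (edgeR adjusted p = 0.0229 and 0.0399); these calls were lost in 2 and 11 of the 16 fits, and without control HSC replicate 2 or mutant HSC replicate 2 no ligand was called. Itga2b rose by 0.58 log2 units (edgeR adjusted p = 0.0485), a call lost with the batch as a block (edgeR adjusted p = 0.0699) and in 8 of the 16 fits, those without any 1 of the control HSC libraries, mutant HSC replicate 1 or 2, or control MPP3 replicate 3 or 4. Within MPP3 none of the 10 other integrins and none of the genes of the 4 lists was called in the mutant by edgeR. At an unadjusted edgeR p under 0.05 there were 1 other integrin, 2 activation genes, 4 of signalling, 2 ligands and 6 partners, beside 13.8% of all genes. In the same order DESeq2 called 1, 1, 1, 1 and 2, where it called 386 of 14146 genes. Of these lists limma-voom called none, where it called 6 of 14179 genes. With the batch as a block 1 activation gene and 1 partner were called higher, where 82 of 14179 genes were called. Without mutant MPP3 replicate 3, 1 activation gene was called higher and 1 partner lower, where 209 of 14515 genes were called.

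The genes most like each member over the 16 libraries, by root mean square difference of gene-centred log2 CPM among 9671 genes, were found as a description. For Itgal they were Adgrg3, Cd52 and Lat2, at 0.38, 0.41 and 0.44 where Itgal itself deviated from its mean by 1.54. Cd44, a hyaluronan receptor, was nearest to Itga4 (0.16 against 0.33), followed by Mpp1 and Msl2. Itga5 was nearest to Pml, Cryzl2 and Samd4b (0.15 to 0.18 against 0.38), Itgb2 to Inka1, Tlr2 and Zfp970 (0.27 each against 0.53) and Itgb7 to Ripor1, Adssl1 and Mfsd13a (0.26 each against 0.56). For Itgb1, Itgav and Itgb5 the nearest genes, Ywhab (0.10 against 0.14), Mapkap1 (0.23 against 0.31) and Ermap (1.73 against 2.45), were hardly closer than the member's own mean. The nearest to Itgam was Tubb6 (0.49 against 0.95) and to Itga6 Cenpb (0.18 against 0.32).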

How the data were processed

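RNA of 16 mouse bone marrow libraries was sequenced. Per the labels' protocols, 10 ng of RNA (integrity number over 8.0) was made into cDNA with a SMARTer Ultra Low kit, amplified for 12 to 15 cycles and read as pairs of 150 bases. The submitters' processing notes name cutadapt 4.0, FastQC, HISAT2 and Salmon and the build GRCm38. The authors deposited, per library, Salmon's estimated counts per gene, not normalized, which were tested, and TPM, which divides by effective length and by library, used to compare levels between genes. The effective gene lengths deposited by the authors (a score in bases) served 1 alternative. Each table had 31716 rows; 1910 transcript rows, none of an integrin member and 0.697 to 0.796% of the counts, were left out.

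Symbols and positions came from the GENCODE M21 annotation of GRCm38, and all 218 listed symbols matched. Counts were rounded, 19743 genes had a count, and filterByExpr kept 14179, all 10 members among them. Genes were fitted with edgeR 4.0.16 (glmQLFit with robust estimation, glmQLFTest) in R 4.3.3 over all 16 libraries with TMM, Benjamini-Hochberg adjustment over all genes tested and 5 comparisons; SE is the log2 fold change over the square root of F. The fit was tested on simulated data. Alternatives were RLE size factors, DESeq2 1.42.0, limma-voom (3.58.1), no filter, effective-length offsets, the replicate block, the groups compared alone, mitochondrial, rRNA and haemoglobin genes left out, and libraries left out. Nearest profiles were sought among genes whose mean reached 5 CPM, with a prior count of 2.

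Per the labels the replicate number is the batch, which pairs the samples. Over 24 pairs of libraries with the same number, deviations from the group mean correlated at -0.03 to 0.16. HSC and MPP3 of the same genotype correlated at 0.08 to 0.16, and libraries of different genotype at -0.03 to 0.1. The main fit used no pairing, and the replicate block joined both genotypes of a number. No fit paired HSC with MPP3 within a genotype. All 10 members are named, and of each list up to 4 called genes with the smallest adjusted p in a comparison, and Itga3, Tln1 and Cd63 were named after their values were seen, as the fifth of 5 calls. The members and lists were chosen with earlier results of these data known. The 2 alternatives added after seeing the data were control MPP3 replicate 2 and mutant MPP3 replicate 3 left out together and replicate 1 of both control groups left out together.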

Additional observations from a re-analysis of the deposited data

Results flagged for a closer look

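Of 40 sets of 4 libraries (10 integrins in 4 groups), 8 held a library whose gap to the nearest other, over the range, was above Dixon's 95% critical value. Chance gives about 1 in 20 where values are normally spread. That was not tested for these CPM, and those of Itgb5 lay near the floor. The 8 of 40 therefore do not show an excess of outlying libraries.

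Itga4 was flagged in both MPP3 groups at replicate 4: 129 CPM in control MPP3, where the others held 104 to 106, and 62.6 CPM in mutant MPP3, where the others held 92.9 to 97.8. Both libraries came from batch 4 and lay on opposite sides of their groups. Itgam was flagged at replicate 1 of control HSC (22.2 CPM against 3.28 to 6.06) and of control MPP3 (30.0 CPM against 14 to 14.9), and at replicate 3 of mutant HSC (2.96 CPM against 5.76 to 6.09). Itgb1 stood at 123 CPM in control HSC replicate 1, the others at 108 to 109. Itgb5 stood at 1.36 CPM in mutant HSC replicate 4 (others 0 to 0.107) and at 5.93 CPM in mutant MPP3 replicate 3 (others 0.0575 to 1.02). The causes were not tested.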

How the results depend on the processing

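The number of integrins called in mutant against control HSC was 0 with all libraries and 0 to 1 when 1 library was left out. It was 1 with DESeq2 (beside 1668 of all genes), 1 with the replicate block (beside 1394) and 1 without replicate 1 of both control groups (beside 889). For MPP3 against HSC it was 3 to 5 with 1 library left out in control mice (5 with all). In mutant mice, with 3 called, the replicate block gave 5 and leaving out 1 library 3 to 4. In mutant against control MPP3 and in the difference the count was 0 in every alternative. The replicate block ended no call of a member and changed no other member call than those given above.

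Directions that turned belonged to changes that were not called, and the cause was not tested. With effective-length offsets Itga4 in mutant HSC turned to -0.063. Without mutant HSC replicates 1 and 4 it was -0.036, and the differences of Itga5 and Itgb7 were -0.087 and -0.12. With limma-voom Itgb7 in mutant HSC was -0.028, and the differences of Itgam and Itgb5 were -0.047 and -1.61. Without replicate 1 of both control groups Itgam and Itgb7 in mutant HSC were 0.235 and -0.115, and the differences of Itgam and Itgb5 -0.364 and -0.333. Without control MPP3 replicate 2 and mutant MPP3 replicate 3, Itgal in mutant MPP3 was -0.035 and the difference of Itgb5 -1.16. With 1 library left out, the mutant effect in HSC ran from -0.016 to 0.068 for Itga4, -0.17 to 0.042 for Itga6, -1.06 to 0.235 for Itgam and -0.116 to 0.226 for Itgb7. That in MPP3 ran from -0.173 to 0.251 for Itgav and -0.02 to 0.196 for Itgal. The change of Itgav from HSC to MPP3 in mutant mice ran from -0.165 to 0.258, and the difference of the mutant effect from -0.022 to 0.202 for Itga5, -0.709 to 0.62 for Itgam and -1.41 to 3.06 for Itgb5.

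Itgal kept its call in both cell type comparisons, and Itga4 and Itga6 in control and Itgb2 in mutant mice kept theirs, in all 27 alternatives of each. With 4 libraries a group, changes of members as variable as Itgam and Itgb5 were not resolved, and counts below 3 per library set the floor for Itgb5 and Itgax. Leaving out 1 library moved the rises among activation genes between 0 and 3 in control mice (1 with all) and the falls between 2 and 4 in mutant mice (4 with all); signalling rises in mutant mice ran from 1 to 5 (4 with all) and ligand falls from 4 to 6 (6 with all).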
